A study of Mus musculus with 12 samples.

Results

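The effect of cycloheximide (CHX), an inhibitor of protein synthesis, on messenger RNA was measured in stimulated EL-4 cells, which derive from a T lymphoma of the mouse. The 3 arrays of CHX-treated cells stimulated with the phorbol ester PMA together with ionomycin (P/I) were compared with the 3 arrays of P/I-stimulated cells that received the solvent DMSO, over every probe set with exactly 1 gene symbol. These are 6 of the 12 arrays of the experiment and 21789 of the 35399 probe sets of the deposited table, and they stand for 19938 genes. The pretreatment lasted 30 min and used either 10 μg/ml CHX or the solvent alone. Stimulation followed for 4 h with 10 ng/ml PMA and 1 μM ionomycin. The other 6 arrays hold the same pretreatments with 0 h of P/I and are used here as a reference. All 4 groups have 3 biological replicates of the same cell line, hybridised to Affymetrix Mouse Gene 1.0ST arrays. EL-4 is a transformed clone and limits what is shown to these cells.

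CHX stops the ribosome during elongation, so that an mRNA can be made but not translated. PMA activates protein kinase C and ionomycin raises intracellular calcium, which together replace a signal from the T cell receptor. Genes whose transcription factors are already present can respond without new protein, whereas others wait for a newly made factor. CHX is also known to raise the mRNA of many immediate early genes above the level reached by the stimulus alone, which is called superinduction, because short-lived repressors and mRNA decay factors are no longer replaced and because a stalled ribosome can protect an unstable mRNA. Less translation further lowers the load of new protein on the endoplasmic reticulum and spares amino acids. In bulk samples like these, fewer cells of a type and less RNA per cell cannot be told apart.

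Over all 35399 probe sets, correlations between arrays within a group were 0.9826 to 0.9944. The T cell markers Cd3e and Cd3g lay at log2 10.28 to 12.35 in all 6 stimulated arrays, while the 8 B cell markers had group means of log2 4.21 to 7.04 in these cells, the highest being that of Cd79b. Values are log2 robust multichip average (RMA) levels, on which a difference of 1 is a 2-fold change. Array values are given in the order of replicates 1, 2 and 3. Genes were called where limma, fitted to the 12 arrays together, gave an adjusted p (Benjamini-Hochberg) under 0.1.

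On the deposited scale, CHX during P/I moved about as many genes up as down. These values had been normalized by quantiles, so the balance cannot show whether total mRNA per cell changed. Of the 19938 genes, 2704 (13.6%) were higher and 2209 (11.1%) were lower with CHX, and the median difference over all genes was log2 0.02. In probe sets this is 2894 (13.3%) higher and 2554 (11.7%) lower, and after median centring of the arrays the split was 3520 higher and 2021 lower. More than 2-fold differences were found for 561 of the higher and 534 of the lower genes, and more than 8-fold differences for 19 and 23. All 3 CHX arrays lay above all 3 DMSO arrays for 15.6% of genes and below them for 13.2%. The 20 largest increases included 4 histone genes, the alpha-arrestins Txnip and Arrdc3, the interferon gene Ifnz, immediate early factors, phosphatases and mRNA decay factors. The 20 largest decreases included cytokines, receptors and signalling genes and the ATF4 pathway genes Trib3 and Chac1.

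**Figure D1:**
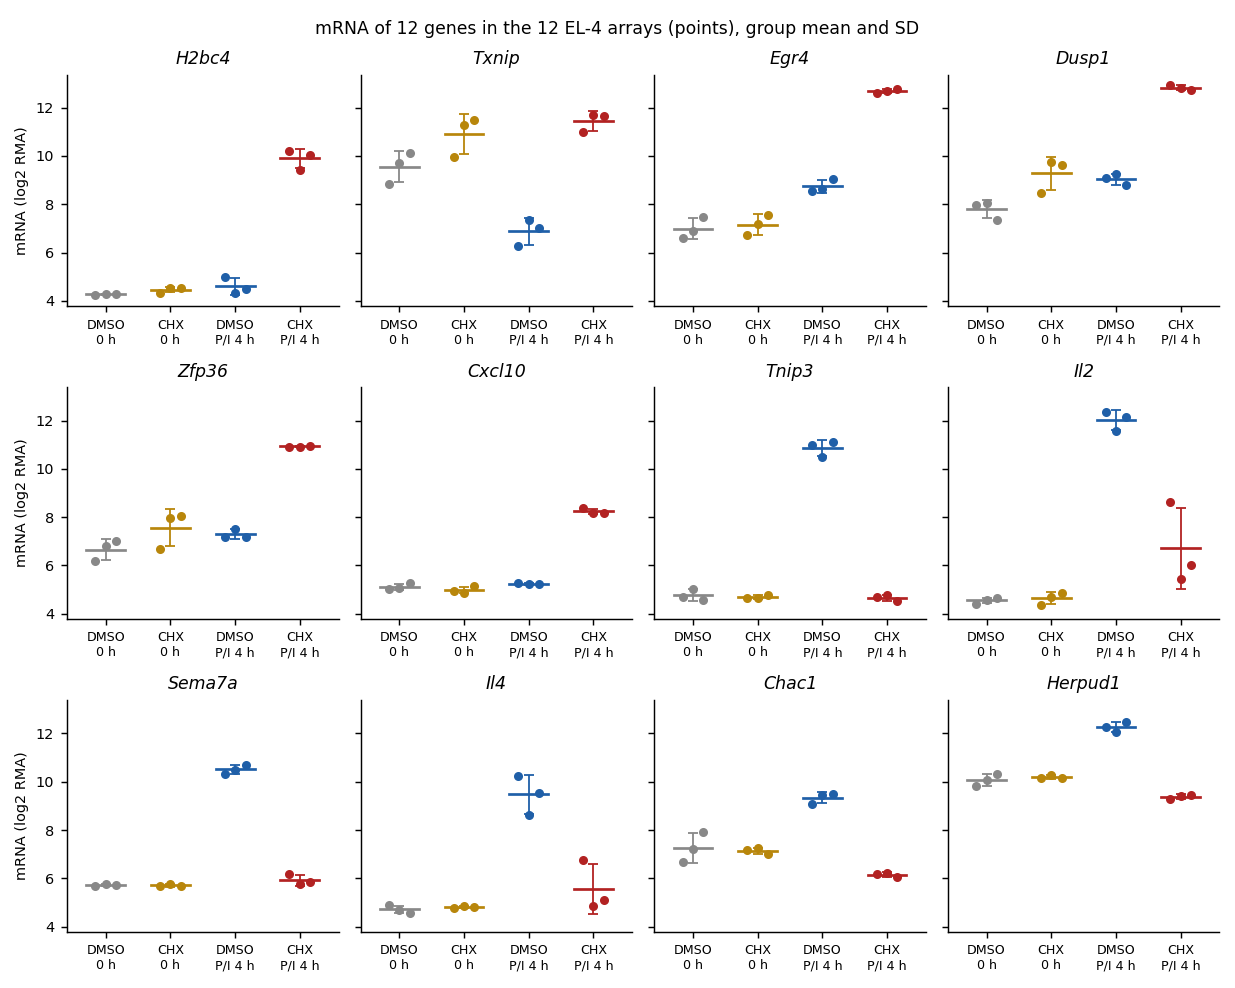
mRNA level (y axis, log2 RMA) of 12 genes in unstimulated cells (0 h) and P/I-stimulated cells (4 h) with DMSO or CHX (x axis). Each point is an array, long bars are means and error bars are SDs. The CHX-treated P/I-stimulated arrays (red) lie above the P/I-stimulated arrays (blue) for the first 6 genes, by log2 5.29 for H2bc4 and 2.99 for Cxcl10, and below them for the last 6, by as much as log2 6.20 for Tnip3.

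Immediate early transcription factors were higher with CHX in most cases. Of 27 measured, 22 were higher and none was lower, with a median difference of log2 1.51. Egr4, a zinc finger factor of the early growth response family, had log2 8.55, 8.63 and 9.06 in P/I-stimulated cells and 12.60, 12.71 and 12.77 in CHX-treated P/I-stimulated cells. The groups were far apart and each was tight. It amounted to log2 3.95 (SE 0.23, adjusted p = 5.35e-07 from limma), or 15.4-fold. The AP-1 subunit Fos had log2 6.86, 7.12 and 6.93 with DMSO and 10.75, 10.71 and 10.81 with CHX. Its partner Jun had log2 6.49, 6.17 and 6.55 with DMSO and 9.65, 10.30 and 10.26 with CHX. In unstimulated cells with DMSO, Fos had log2 6.10, 5.81 and 5.42, below all P/I-stimulated arrays, and Jun had 6.05, 7.23 and 6.81, a range that overlapped them. Fosb (log2 3.70 higher), Fosl2 (2.499), Junb (2.40), Maff (2.29) and the orphan nuclear receptor Nr4a3 (2.27) followed. Egr2, at log2 10.57, 10.09 and 10.54 after P/I, was already high and was higher by only log2 1.39 (SE 0.41, adjusted p = 0.031 from limma). That call was lost without replicate 3 of the CHX-treated P/I-stimulated cells (log2 1.25) or replicate 2 of the P/I-stimulated cells (log2 1.24). The members that did not pass were Mafk, Ier3, Jund, Klf4 and Srf, between log2 -0.18 and 0.32, and they are named here after their values were seen.

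The genes that end this early response behaved unequally. Dusp1, a phosphatase that inactivates MAP kinases, had log2 9.09, 9.23 and 8.78 with DMSO and 12.93, 12.80 and 12.73 with CHX. This was 13.8-fold higher (log2 3.79, SE 0.29, adjusted p = 3.67e-06 from limma). Dusp8 and Dusp16, which act on JNK and p38, were higher by log2 2.97 and 2.10, whereas the Ras pathway inhibitor Spred1 was lower by log2 1.13 (log2 difference -1.13). In the list of 15 MAP kinase phosphatases, Sprouty and Spred genes, 6 were higher and 2 lower. Zfp36 (tristetraprolin), which binds AU-rich elements and recruits the deadenylation machinery, had log2 7.18, 7.53 and 7.18 with DMSO and 10.90, 10.92 and 10.96 with CHX. All 3 CHX arrays were within log2 0.1 of each other and more than log2 3 above the highest DMSO array. Btg2, Tob2 and Tob1, which tie the CCR4-NOT deadenylase to mRNA, were higher by log2 3.17, 2.30 and 1.21. The endonuclease Zc3h12a (Regnase-1) was higher by log2 1.57 and the deadenylase subunit Pan2 by log2 1.27. Of 21 AU-rich and deadenylation factors, 13 were higher and 3 lower, with a median of log2 0.68. The 3 that were lower, named after their values were seen, were the decapping enzyme Dcp2 (log2 -0.93), the stem-loop binding ligase Rc3h1 or Roquin-1 (-0.87) and the deadenylase Cnot7 (-0.23). Among 11 factors of nonsense-mediated decay, a pathway that needs translation, 4 were higher and none lower, with Casc3 at log2 0.84 and Upf1 at log2 0.47.

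Genes of the NF-kB family were mostly higher with CHX, but the inhibitor Tnip3 was far lower. All 4 measured subunit genes were higher with CHX, among them Relb (log2 1.76) and Rel (1.08). Nfkb2, at log2 0.41 with adjusted p = 0.0988 from limma, only just passed and did not pass without any of the CHX-treated or without replicate 2 or 3 of the DMSO-treated P/I-stimulated cells (log2 0.27 to 0.48). Its call was also lost without replicate 2 of either unstimulated group or replicate 1 of the unstimulated cells with DMSO. With only the 6 stimulated arrays it did not pass (limma adjusted p = 0.108), and with replicate number as a block it passed (limma adjusted p = 0.0321). Of 14 feedback inhibitors, 11 were higher and 2 lower. Tnfaip3 (A20), a ubiquitin-editing enzyme, had log2 7.99, 7.08 and 7.28 with DMSO and 10.59, 10.61 and 10.60 with CHX, which was 8.89-fold higher. Nfkbia, which encodes the inhibitor IκBα, had log2 11.12, 10.61 and 10.74 with DMSO and 12.42, 12.14 and 12.28 with CHX. Tnip3, an A20-binding inhibitor, went the other way, from log2 10.99, 10.50 and 11.10 with DMSO to 4.69, 4.78 and 4.54 with CHX. The CHX arrays lay close to the unstimulated ones, at log2 4.59 to 5.04. Measured values of Tnip3 differed by log2 -6.20 (SE 0.16, limma adjusted p = 1.18e-09). The values carry no detection call, so no fold is given where 1 group lay near log2 5 or lower. Its relative Tnip1 was higher by log2 1.36.

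The windows before the annotated starts of Nfkbia and Tnip3 are shown because these inhibitors moved in opposite directions and both windows hold an NF-kB site. They are 250 bases of RefSeq sequence of GRCm38.p6, printed on the strand of the gene and ending at the base before the start, at chr12:55492648-55492897, minus strand for Nfkbia and at chr6:65590148-65590397, plus strand for Tnip3. Capitals mark the match to the NF-kB consensus, sought on both strands.
Nfkbia: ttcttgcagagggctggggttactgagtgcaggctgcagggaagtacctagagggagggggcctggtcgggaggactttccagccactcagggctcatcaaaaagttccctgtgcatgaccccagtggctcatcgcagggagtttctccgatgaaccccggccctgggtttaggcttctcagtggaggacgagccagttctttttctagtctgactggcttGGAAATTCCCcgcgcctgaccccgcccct
Tnip3: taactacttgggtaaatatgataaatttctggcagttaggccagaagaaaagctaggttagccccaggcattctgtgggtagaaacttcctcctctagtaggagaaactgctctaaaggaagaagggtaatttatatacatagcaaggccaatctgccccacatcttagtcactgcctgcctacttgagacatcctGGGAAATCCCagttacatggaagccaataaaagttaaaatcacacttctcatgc
In Nfkbia the match begins 29 bases before the start and in Tnip3 54 bases before it. The site was found in 6 of the 10 windows of feedback inhibitors that could be searched (60.0%), against 4.7% of the 12935 windows of measured genes, which run from 250 bases before to 50 after the start. The site was not particular to this list. Cytokine receptor chains had it in 4 of 9 windows, chemokines in 3 of 8 and immediate early factors in 6 of 18. MAP kinase phosphatases, Sprouty and Spred genes had the site in 0 of 13. By call, the site was present in 6.2% of the windows of genes higher with CHX, in 4.2% of those lower and in 4.5% of those not called. A match of letters is a description and does not show that a factor binds there.

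Replication-dependent histone genes had the largest median of all lists. They encode the histones that package new DNA, and their mRNAs end in a stem-loop and are known to be unstable outside S phase. Of 12 measured, 11 were higher with CHX and none lower, with a median of log2 2.22. H2bc4, an H2B gene, had log2 5.004, 4.34 and 4.48 with DMSO and 10.20, 9.43 and 10.06 with CHX. The DMSO arrays were at the low end of the range and the CHX arrays far above it, a difference of measured values of log2 5.29 (SE 0.20, adjusted p = 1.31e-08 from limma). The H2A gene H2ac1, which is not among these 12, had log2 8.08, 8.07 and 8.001 with DMSO and 11.44, 10.97 and 11.45 with CHX. Within the list, H2aw (log2 3.24 higher) and the linker histone genes H1f2 (3.07) and H1f1 (2.26) followed. H1f5, at log2 0.16, did not pass. Drawn up after the values were seen, a wider set of all 27 measured histone genes of the H1, H2A, H2B, H3 and H4 clusters had 26 higher and none lower, with a median of log2 1.499. Many of these genes are near-identical copies, so probes may read more than 1 of them, and how much each gene contributed is uncertain.

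The windows of 2 H2B genes are shown for their octamer (ATTTGCAT, sought on both strands), a known element of H2B promoters, in capitals. They are 250 bases of GRCm38.p6 RefSeq sequence that end before the start, at chr13:23746484-23746733, plus strand for H2bc3 (log2 2.59 higher) and at chr13:23571150-23571399, plus strand for H2bc8 (log2 2.17 higher).
H2bc3: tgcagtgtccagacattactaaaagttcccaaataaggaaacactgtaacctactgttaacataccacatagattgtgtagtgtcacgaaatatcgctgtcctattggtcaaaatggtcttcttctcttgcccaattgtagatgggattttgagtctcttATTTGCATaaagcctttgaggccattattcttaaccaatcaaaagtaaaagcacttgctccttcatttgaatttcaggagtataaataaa
H2bc8: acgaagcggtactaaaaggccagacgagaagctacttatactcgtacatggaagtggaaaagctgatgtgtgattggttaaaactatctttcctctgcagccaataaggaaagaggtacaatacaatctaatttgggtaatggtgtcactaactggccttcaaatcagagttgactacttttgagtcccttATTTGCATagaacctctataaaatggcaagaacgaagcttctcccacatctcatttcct
The octamer begins 90 bases before the start of H2bc3 and 59 before that of H2bc8. It was present in 5 of 11 searched histone windows (45.5%), against 1.8% of all windows of measured genes and 2.0% of those of all genes higher with CHX.

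Mitosis genes were mostly higher with CHX, and genes of the G1 phase moved in both directions. Of 23 mitosis genes, 15 were higher with CHX and none lower (median log2 0.79), and 1 was lower without replicate 3 of the P/I-stimulated cells. With DMSO, P/I itself had lowered 15 of these 23 genes against unstimulated cells and raised none (median log2 -0.85). The CHX arrays are thus set against a lowered level, and CHX without P/I gave a median of log2 0.10. The mitotic kinase Aurka had log2 9.09, 7.72 and 7.64 with DMSO and 9.77, 10.02 and 10.19 with CHX. The gap was narrow for replicate 1 of the P/I-stimulated cells and wide for the others, and the difference went from log2 1.84 to 2.31 without that array. The spindle genes Nusap1 (log2 1.75), Cenpe (1.69) and Prc1 (1.58) were higher by similar amounts. Of 23 DNA replication genes, 7 (30.4%) were higher and 1 (4.3%) lower, and without replicate 1 of the P/I-stimulated cells 11 were higher. Among all genes above log2 6, 19.6% to 26.9% were higher and 16.8% to 21.8% lower. Among 21 cyclins, kinases and inhibitors of the G1 phase, 9 were lower and 5 higher. Ccnd1 (cyclin D1) had log2 11.09, 11.83 and 11.50 with DMSO and 9.29, 9.40 and 8.91 with CHX, a log2 difference of -2.27. Cyclin E2 (Ccne2, log2 -1.93) and the F-box protein Skp2 (-1.43), which marks cell cycle inhibitors for degradation, were lower as well. Cdkn2d (p19Ink4d), an inhibitor of Cdk4 and Cdk6, was higher by log2 1.84.

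**Figure D2:**
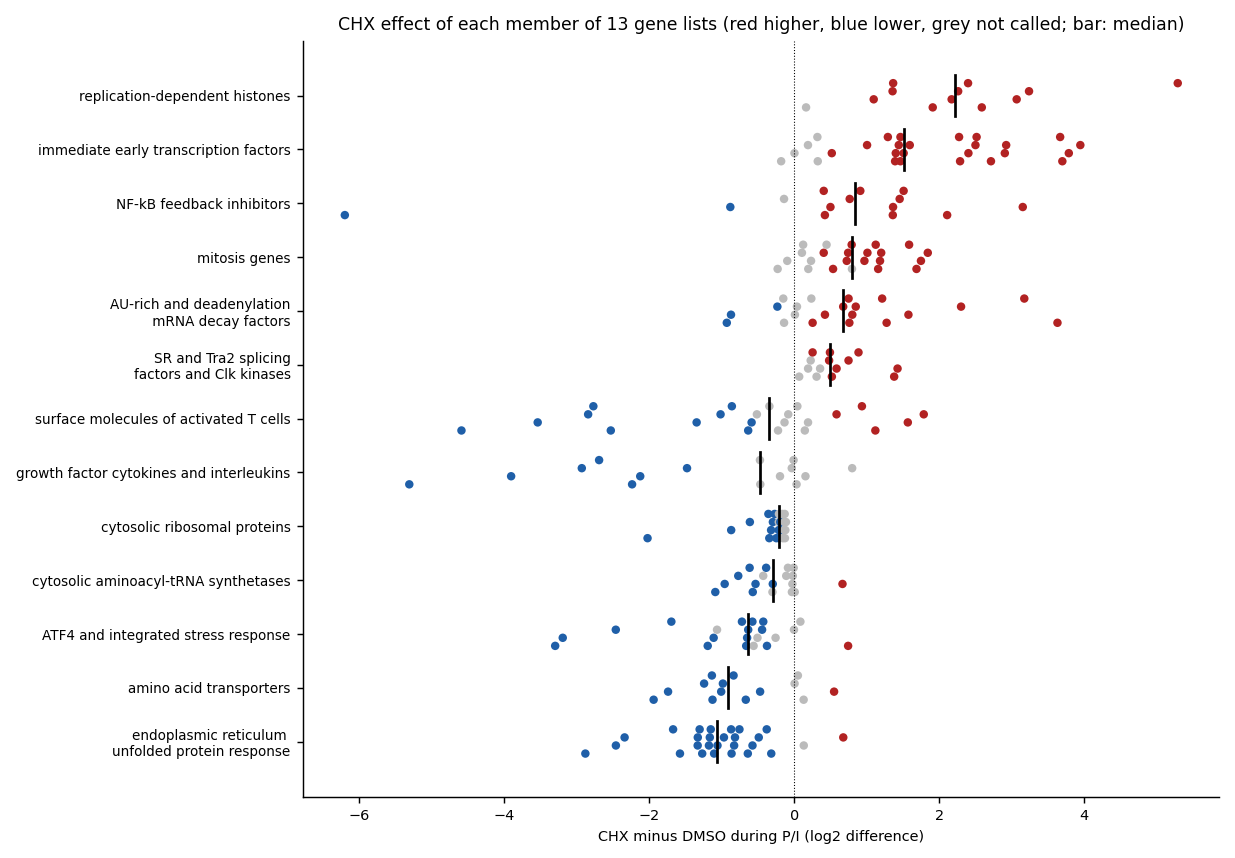
Difference between CHX and DMSO during P/I (x axis, log2) for each measured member of 13 gene lists (y axis). Red points were called higher and blue points lower at an adjusted p under 0.1 from limma, grey points were not called, and the black bar is the median. Medians run from log2 2.22 for the replication-dependent histones to -1.06 for the unfolded protein response, and in the NF-kB feedback inhibitors Tnip3 stands alone at -6.20.

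Several other genes with large increases lie outside the lists described so far. Txnip, an alpha-arrestin that limits glucose uptake, had log2 6.27, 7.36 and 7.003 with DMSO and 10.98, 11.71 and 11.64 with CHX. The P/I-stimulated DMSO arrays were below the unstimulated ones (log2 8.85, 9.69 and 10.12) and the CHX arrays above them. The related Arrdc3 had log2 7.04, 7.26 and 6.73 with DMSO and 10.97, 10.97 and 11.12 with CHX, which was 16.1-fold higher. Ifnz, a type I interferon gene, had log2 6.48, 7.53 and 6.74 with DMSO and 10.67, 10.99 and 11.22 with CHX. Cxcl10, a chemokine for activated T cells, had log2 5.29, 5.22 and 5.22 with DMSO and 8.37, 8.19 and 8.15 with CHX. The unstimulated arrays of Cxcl10 had log2 5.01 to 5.26 with DMSO and 4.88 to 5.15 with CHX, so that only the CHX-treated P/I-stimulated arrays stood out. Irf1, a transcription factor of the interferon response, was higher by log2 1.99 and Irf9 by log2 2.09. Of 17 interferon-stimulated genes, however, 4 were higher and 1 lower (2 without replicate 2 of the P/I-stimulated cells), and the median was log2 0.08. The stress gene Gadd45b, the ubiquitin ligase Neurl3 and the zinc finger factor Hivep1 were higher by log2 3.03 to 3.08. Klf2, a factor of resting T cells, had log2 6.73, 7.05 and 6.92 with DMSO and 9.41, 9.81 and 9.91 with CHX. Klf2 and Txnip belong to a list of quiescence and homing genes that moved in both directions. Of its 17 measured genes, 4 (23.5%) were higher and 3 (17.6%) lower, with a median of log2 0.09. These shares were within those of all genes above log2 6 (19.6% to 26.9% higher, 16.8% to 21.8% lower).

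Many genes of RNA synthesis and splicing were higher with CHX by smaller amounts. Of 15 Pol II elongation factors, 9 were higher and 1 lower (median log2 0.58). The super elongation complex scaffold Aff1 was higher by log2 1.67 and Polr2a, the largest Pol II subunit, by log2 0.80, whereas Ell2 was lower at log2 -0.66. Of 14 SR and Tra2 splicing factors and Clk kinases, 9 were higher and none lower. The kinase Clk1, which phosphorylates SR proteins, had log2 9.84, 9.60 and 9.80 with DMSO and 11.02, 11.10 and 11.26 with CHX, and Clk4 was higher by log2 1.42. Of 13 circadian clock genes, 8 were higher and 3 lower. Per1, itself an immediate early gene, was higher by log2 2.22 and Nr1d1, which represses the clock gene Arntl, by log2 1.43, and Ciart was lower at log2 -1.19. Of 15 inducible kinases and RGS proteins, 6 were higher, with Sik1 at log2 1.17, and none was lower, or 1 without CHX replicate 1 or DMSO replicate 2 of the stimulated cells.

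Several of the largest decreases were those of T cell effector genes. Of 15 growth factor cytokines and interleukins, 7 were lower with CHX and none higher. In fits without replicate 2 of the CHX-treated or replicate 1 of the DMSO-treated P/I-stimulated cells, 1 was higher. Il2, the T cell growth factor, had log2 12.36, 11.56 and 12.13 with DMSO and 8.63, 5.45 and 6.03 with CHX. Replicate 1 of the CHX-treated cells was well above the other two, and every CHX array was below every DMSO array. CHX lowered Il2 by a log2 difference of -5.31 (SE 0.60, adjusted p = 6.68e-05 from limma) and -6.27 without that replicate. Il4, which drives the Th2 fate, had log2 10.25, 8.64 and 9.53 with DMSO and 6.75, 4.85 and 5.12 with CHX. Its highest CHX array was again replicate 1. Csf2 (GM-CSF) had log2 9.81, 7.99 and 10.21 with DMSO and 8.16, 5.19 and 5.87 with CHX. Here the groups overlapped, since CHX replicate 1 exceeded DMSO replicate 2. Csf2 passed at log2 -2.93 (SE 0.68, adjusted p = 0.0083 from limma), and stood at -3.81 without CHX replicate 1. Csf1, the macrophage growth factor, had log2 8.88, 9.56 and 9.71 with DMSO and 7.19, 6.44 and 6.45 with CHX. Il5 (log2 -2.24), Il6 (-2.12) and Il10 (-1.48) were lower as well. Il3, Il13, Ifng and Lif, named after their values were seen, did not pass, at log2 -0.47, -0.47, 0.16 and 0.80.

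Chemokines moved in both directions. Ccl1, a ligand of Ccr8, had log2 12.27, 11.61 and 11.73 with DMSO and 7.93, 6.53 and 6.86 with CHX, a 27.1-fold lower level. Ccl5 was lower at log2 -0.55. Besides Cxcl10, Ccl4 was called higher, from log2 6.25, 5.56 and 5.76 to 8.89, 6.01 and 6.78. That call was unstable: without CHX replicate 1 the difference fell from log2 1.37 to 0.54 (adjusted p = 0.129 from limma), and it was also lost without any of 9 other arrays. With only the 6 stimulated arrays Ccl4 did not pass (limma adjusted p = 0.228). It did pass in limma without the 4 replicate 1 arrays (log2 0.74, adjusted p = 0.0184). The same held with array weights (log2 1.17, adjusted p = 0.0578) and with the replicate block (adjusted p = 0.0357). Of 11 chemokines 2 were higher and 2 lower, close to the share of all genes. Of 12 TNF superfamily ligands, 5 were lower and 1 higher. Tnfsf8 (CD30 ligand) had log2 11.75, 11.72 and 11.86 with DMSO and 10.42, 8.32 and 8.86 with CHX, and Fasl was lower at log2 -0.95. Tnf itself was higher by log2 1.28. Tnfsf9 (4-1BB ligand) had a difference of log2 0.89 (adjusted p = 0.245 from limma), which passed at log2 1.28 without DMSO replicate 1, where 2 ligands were higher. Tnfsf9 also passed in limma with array weights (log2 0.92, adjusted p = 0.0694), without the 4 replicate 1 arrays (log2 0.67, adjusted p = 0.00342) and in the model blocked on replicate number (adjusted p = 0.00928).

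Among 23 surface molecules of activated T cells, 10 were lower and 5 higher, and 3 were higher without replicate 3 of the CHX-treated P/I-stimulated cells. Sema7a, a membrane-anchored semaphorin, had log2 10.34, 10.49 and 10.71 with DMSO and 6.17, 5.75 and 5.85 with CHX. Crtam, an adhesion receptor, had log2 9.003, 8.53 and 9.03 with DMSO and 5.29, 5.24 and 5.42 with CHX, close to unstimulated cells with DMSO (5.25 to 5.35). Cd160 (log2 -2.84), Tnfrsf4 or OX40 (-2.53), Tnfrsf9 or 4-1BB (-1.35) and Tnfrsf18 or GITR (-1.02) were lower. The TNF receptor Tnfrsf1b was higher by log2 1.79. Both measured receptor chains for Il2 were lower. Il2rb had log2 7.32, 7.76 and 7.67 with DMSO and 4.77, 4.68 and 4.61 with CHX, and Il2ra was lower at log2 -1.98. Il21r was lower at log2 -1.77 and Il15ra at -0.78, whereas the interferon receptor chains Ifngr1 and Ifnar1 were higher by log2 1.46 and 1.26. Over all 16 cytokine receptor chains 4 (25%) were lower and 3 (18.8%) higher. The shares were 11.1% and 13.6% of all genes, and 16.8% to 21.8% and 19.6% to 26.9% of those above log2 6.

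Transcription factors of helper T cell fate were lower or higher by member. Irf4, needed for effector differentiation, had log2 9.47, 8.22 and 9.17 with DMSO and 6.71, 4.79 and 4.78 with CHX. CHX replicate 1 was again apart, and the difference was log2 -3.53 with all arrays and -4.17 without it. Id2 (log2 -1.78), Nfil3 (-1.66), Irf8 (-1.40) and Zbtb32 (-1.14) were lower. Of 24 lineage and interferon regulatory factors, 8 (33.3%) were lower and 6 (25%) higher. Signalling genes moved in both directions. Among the largest decreases outside the lists, the kinase Jak2 had log2 11.69, 11.12 and 11.72 with DMSO and 7.87, 8.05 and 7.72 with CHX, and the Tec family kinase Tec had 9.49, 9.48 and 9.31 with DMSO and 5.85, 5.99 and 5.82 with CHX. For both genes the CHX arrays lay below all arrays of unstimulated cells. In the T cell receptor list, Ptpn22 (log2 -1.87), Fyn (-1.17) and the adaptor Lat (-0.78) were lower, and Ptpn6 (SHP-1) was higher by log2 1.12. Of 23 T cell receptor signalling genes 8 (34.8%) were higher and 6 (26.1%) lower. The higher count was 4 without replicate 3 of the CHX-treated and 5 without replicate 3 of the DMSO-treated P/I-stimulated cells. Of all genes above log2 6, 19.6% to 26.9% were higher and 16.8% to 21.8% lower. The catalytic calcineurin genes Ppp3ca and Ppp3cc and the regulatory Ppp3r1 were lower by log2 differences of -1.03, -0.89 and -0.72. Of 14 calcineurin and NFAT genes 6 were lower and 2 higher, and 1 was higher without replicate 3 of the CHX-treated or replicate 2 or 3 of the DMSO-treated P/I-stimulated cells. Socs3, an inhibitor of cytokine signalling, was higher by log2 2.31 and Stat5a lower at log2 -1.17. In the BCL2 family the survival genes Bcl2l1 (BCL-xL) and Bcl2 were lower at log2 -1.35 and -1.16, and Mcl1 was higher by log2 0.47.

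Further genes with large decreases were the growth factor Hbegf (log2 -3.62), the peptide hormone receptor Calcrl (-3.67), the transporter Slc5a12 (-3.95), the actin regulators Abra (-3.79) and Capg (-3.31), the enzymes Pgap1 (-3.71) and Pam (-3.22), and Gfod1 (-3.37) and Nol4l (-3.07). Slc5a12 had log2 8.56, 8.29 and 8.73 with DMSO and 4.60, 4.53 and 4.60 with CHX. Its CHX arrays lay just below the range of unstimulated cells with DMSO (4.67 to 4.91). Calcrl fell past that level: it had log2 10.94, 10.57 and 11.13 with DMSO, 7.28, 7.002 and 7.35 with CHX and 7.56 to 7.93 in unstimulated cells with DMSO. Lef1 (log2 -2.04) and Slfn2 (-2.42), of the same quiescence and homing list as Klf2, and the angiogenic factor Vegfa (-1.98) were lower too.

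**Figure D3:**
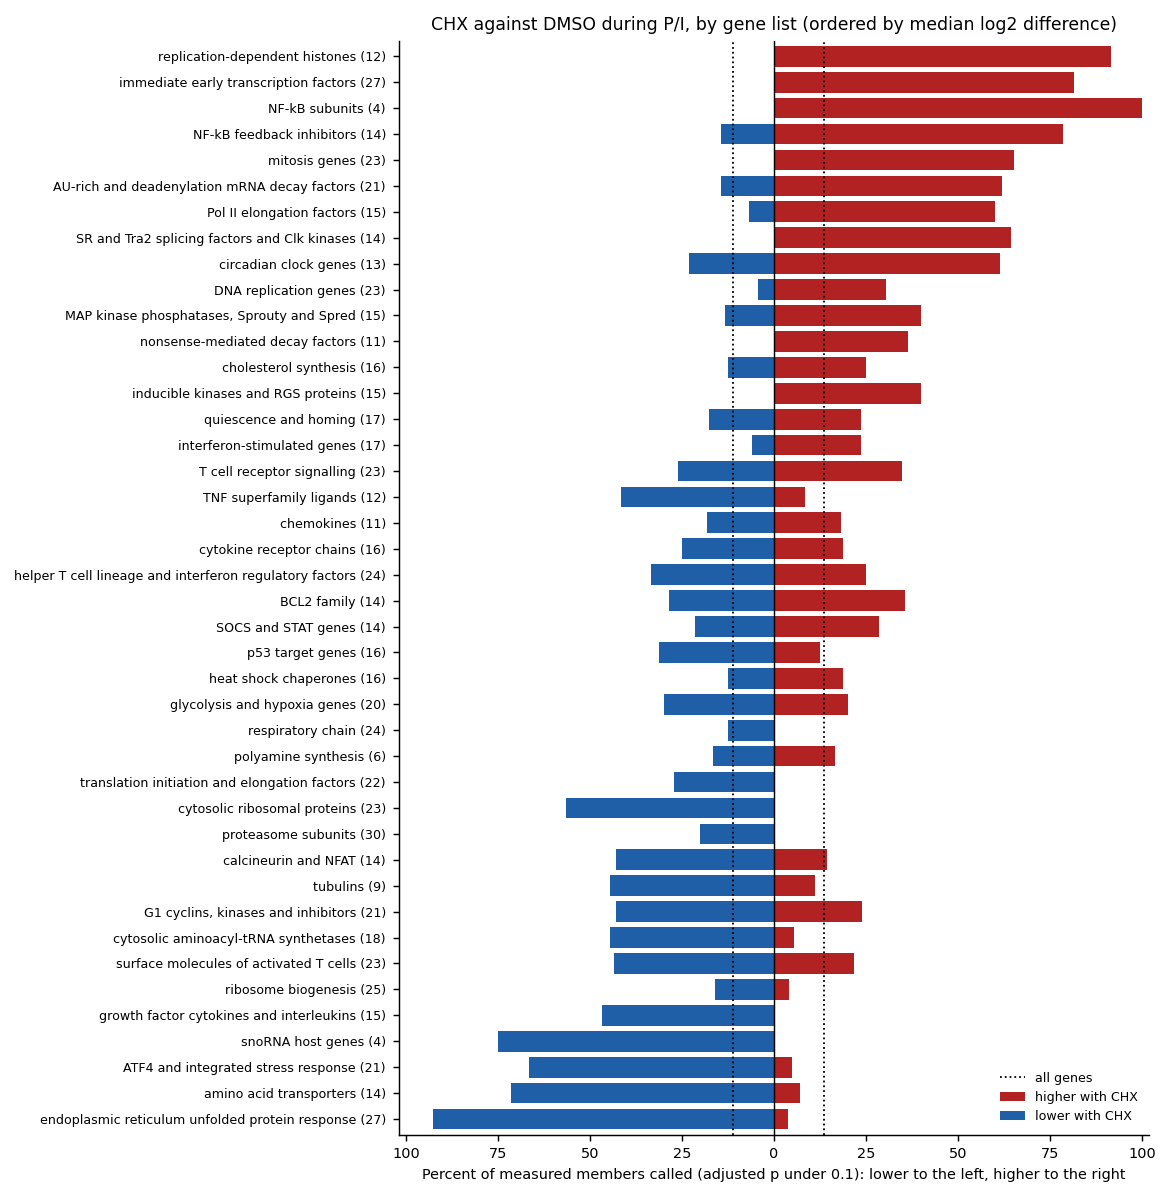
Share of members called higher (red bars, to the right) or lower (blue bars, to the left) with CHX during P/I, in percent, for 42 gene lists on the y axis with the size of each list beside its name, at an adjusted p under 0.1 from limma (x axis). Dotted lines mark all genes, 13.6% higher and 11.1% lower. Among genes with a mean above log2 6, split by level, 19.6% to 26.9% were higher and 16.8% to 21.8% lower. A list of well-expressed genes can thus pass the dotted lines without exceeding genes of like level. The lists are ordered by their median difference. The histones (11 of 12 higher) stand at the top and the unfolded protein response (25 of 27 lower) at the bottom.

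The unfolded protein response of the endoplasmic reticulum was lower almost throughout. This response raises chaperones and degradation factors when unfolded proteins accumulate in that compartment. Of 27 genes, 25 were lower with CHX and 1 was higher, with a median of log2 -1.06. Herpud1, a part of the degradation machinery, had log2 12.27, 12.04 and 12.47 with DMSO and 9.27, 9.42 and 9.45 with CHX. It was 10.08 on average in unstimulated cells, so the CHX arrays also lay below that level. Herpud1 differed by log2 -2.88 (SE 0.13, adjusted p = 7.4e-08 from limma). Sel1l, a partner of the ubiquitin ligase Syvn1, was lower at log2 -2.34, the chaperone cofactor Dnajb9 at -2.46, the mannosidase-like Edem1 at -1.16 and the disulfide isomerase Pdia6 at -1.15. The higher gene was Ern1, which encodes the sensor IRE1, at log2 0.68. Its call was lost without replicate 1 or 3 of the CHX-treated or replicate 2 or 3 of the DMSO-treated P/I-stimulated cells. Atf6, the other sensor gene in the list, did not pass, at log2 0.13, and both sensors are named after their values were seen.

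The ERSE, the endoplasmic reticulum stress element bound by ATF6 and NF-Y, was sought on both strands as CCAAT followed, after any 9 bases, by CCACG. Windows of 2 members that hold it were chosen after their values were seen and are printed for it, in capitals, as 250 bases of GRCm38.p6 RefSeq sequence before the start. They lie at chr15:88819396-88819645, plus strand for Creld2 (log2 -1.67), where the match reads on the opposite strand, and at chr19:6046326-6046575, plus strand for Syvn1 (log2 -1.33).
Creld2: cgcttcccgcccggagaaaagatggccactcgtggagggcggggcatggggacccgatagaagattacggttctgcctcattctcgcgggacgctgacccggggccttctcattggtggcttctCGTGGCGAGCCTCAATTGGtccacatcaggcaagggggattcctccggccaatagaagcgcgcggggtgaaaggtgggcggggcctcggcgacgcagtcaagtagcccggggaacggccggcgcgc
Syvn1: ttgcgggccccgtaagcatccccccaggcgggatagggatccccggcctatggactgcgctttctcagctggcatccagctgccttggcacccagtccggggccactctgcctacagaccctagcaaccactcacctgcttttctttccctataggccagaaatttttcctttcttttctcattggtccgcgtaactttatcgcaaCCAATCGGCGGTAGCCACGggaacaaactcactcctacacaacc
The element was found in 9 of 22 searched windows of the list (40.9%) and in 16 of all 12935 windows (0.1%). Of those 16, 10 belonged to genes lower with CHX, 2 to genes higher and 4 to genes not called. The 9 windows of the list are among the 16, and their genes were all lower. The count of 10 therefore largely repeats the result of the list and says little about genes outside it.

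Genes of ATF4 and the integrated stress response, which answer amino acid shortage, were lower in 14 of 21 cases, and 1 was higher. Trib3, a pseudokinase, had log2 10.19, 10.65 and 10.80 with DMSO and 6.86, 7.78 and 7.11 with CHX. Chac1, which degrades glutathione, had log2 9.09, 9.45 and 9.48 with DMSO and 6.17, 6.23 and 6.04 with CHX. Both genes lay lower in the CHX arrays than in any unstimulated array. Sesn2 (log2 -2.46), the partner factor Cebpg (-1.69) and the one-carbon enzyme Mthfd2 (-1.11) were lower as well. Atf4 itself did not pass, at log2 0.09, and the higher gene was Ppp1r15a (GADD34) at log2 0.74, 2 genes named after their values were seen. Of 14 amino acid transporters, 10 were lower and 1 higher, with a median of log2 -0.91. The cystine carrier Slc7a11 had log2 9.94, 10.04 and 10.17 with DMSO and 8.27, 7.90 and 8.17 with CHX, and the neutral amino acid carrier Slc7a5 was lower at log2 -1.01. Of 18 cytosolic aminoacyl-tRNA synthetases, 8 were lower and 1 (Vars, log2 0.67) was higher, with Tars at log2 -1.09 and Wars at -0.96.

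The C/EBP-ATF element, to which ATF4 binds with a C/EBP partner, was searched as TGATGNAA on both strands. It is in capitals in the 250 bases before the start, from GRCm38.p6 RefSeq, of Chac1 (chr2:119350992-119351241, plus strand) and Tars (chr15:11399659-11399908, minus strand), where both matches read on the opposite strand.
Chac1: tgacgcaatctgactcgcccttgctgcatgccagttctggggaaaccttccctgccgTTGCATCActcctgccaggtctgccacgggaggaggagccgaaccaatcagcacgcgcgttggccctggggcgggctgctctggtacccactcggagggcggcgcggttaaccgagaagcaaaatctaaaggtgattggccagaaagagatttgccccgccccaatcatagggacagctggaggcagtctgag
Tars: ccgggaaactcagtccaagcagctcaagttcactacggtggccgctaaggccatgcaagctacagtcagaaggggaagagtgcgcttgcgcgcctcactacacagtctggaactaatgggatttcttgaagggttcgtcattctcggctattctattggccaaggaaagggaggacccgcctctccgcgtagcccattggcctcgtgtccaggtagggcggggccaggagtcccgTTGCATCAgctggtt
The match begins 193 bases before the start of Chac1 and 15 before that of Tars. It was present in 5 of 18 searched windows of the ATF4 list (27.8%), in 4 of 11 of the tRNA synthetases (36.4%) and in 3.3% of all windows. The 4 synthetases with it, Gars, Iars, Tars and Yars, were all lower with CHX and are named after their values were seen. In all genes lower with CHX the share was 2.5%.

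The machinery of translation and protein turnover shifted little. Of 23 cytosolic ribosomal protein genes 13 were lower and none higher, but the median was only log2 -0.21, and the count was 6 after median centring and 8 after quantile normalization. It was 8, 7 and 8 without CHX replicate 1, CHX replicate 2 and DMSO replicate 3 of the stimulated cells. Rpl12 stood apart, at log2 9.07, 8.64 and 8.96 with DMSO and 6.79, 6.69 and 7.11 with CHX. Ribosomal protein genes have many near-identical processed copies, so which copy a probe set reads is uncertain. Of 22 translation factors 6 were lower and none higher, among them the inhibitor gene Eif4ebp1 (log2 -0.93). Of 30 proteasome genes 6 were lower, with a median of log2 -0.22, and 2 were lower after median centring or without CHX replicate 2 and 3 without DMSO replicate 1 of the stimulated cells. In the heat shock list the constitutive Hspa8 was lower at log2 -0.71 and the cofactor Dnajb1 higher by log2 1.35. Of 20 glycolysis and hypoxia genes 6 (30%) were lower and 4 (20%) higher. Of 24 respiratory chain genes 3 (12.5%) were lower, or 6 without CHX replicate 1. Above log2 6, 16.8% to 21.8% of all genes were lower and 19.6% to 26.9% higher. In the main fit only the 30% lay above these shares.

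Markers of B, myeloid and erythroid cells and of fibroblasts had group means of log2 4.10 to 7.04 in the stimulated cells, against 7.71 to 12.30 for the T cell markers. Of 10 myeloid markers 3 were called higher with CHX and none lower. Fcgr1, an Fc receptor, had log2 5.07, 5.40 and 5.19 with DMSO and 7.49, 5.95 and 6.22 with CHX, while Elane and Adgre1 were higher by log2 0.36 and 0.25. Without CHX replicate 2 only 1 of the 3 was called. The summed level of the list was 48.2 to 49.8 in the DMSO arrays and 51.0 to 52.2 in the CHX arrays of stimulated cells, so that the groups did not overlap. The other 7 members, Cd14, Csf1r, Itgam, Lyz2, Mpo, Cebpa and Csf3r, did not pass, with differences of log2 -0.06 to 0.18. Of 8 B cell markers 1 (Cd79b, log2 0.54) was higher, and of 8 erythroid and fibroblast markers none was called, or 1 in each direction without replicate 1 of the P/I-stimulated cells. Of 8 T cell markers 3 were higher and 1 lower, and 1 was higher without replicate 3 of either stimulated group. Whether other cells play a part in any result was not tested.

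CHX without P/I is the background for these values. In unstimulated cells 7 genes were higher with CHX (0.0351%) and none (0%) lower by limma, while 850 and 562 genes had an unadjusted p under 0.05. This count was unstable. With the replicate number as a block, which pairs these 6 arrays, 98 genes were higher (0.492%) and 4 lower (0.0201%). In probe sets, 7 higher and 0 lower became 38 and 4 without replicate 1 of the CHX-treated unstimulated cells, and 27 and 1 without replicate 1 of the P/I-stimulated cells. The higher count was 0 without replicate 2 or 3 of either unstimulated group or replicate 2 of the CHX-treated P/I-stimulated cells. It was 2 without replicate 3 of the P/I-stimulated cells and 3 without replicate 1 of the unstimulated cells with DMSO. The 7 were Arrdc3, Clk1, Fkbp7, Rasl11b, Zfp217, Zfp263 and Zfp87, by log2 0.71 to 1.69. They were chosen by this call and not by the rule for named genes, and all 7 were higher with CHX during P/I too. Among the genes above, Dusp1 (log2 1.49), Txnip (1.37) and Fos (1.33) had large differences without P/I that did not pass without the block. Their CHX arrays of replicate 1 were lower than those of the other replicates, at log2 8.48, 9.74 and 9.63 for Dusp1. The labels do not state how long unstimulated cells stayed in CHX after the pretreatment, so P/I and the length of exposure cannot be told apart in the difference between the effects.

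The difference between the CHX effects with and without P/I was tested by the interaction term of limma. It was higher during P/I for 1195 genes (5.99%) and lower for 1521 (7.63%), or 1281 (5.88%) and 1699 (7.8%) in probe sets. This test shares the stimulated arrays with the CHX effect during P/I, so its calls are not independent of the calls above. In the unfolded protein response list 21 of 27 genes had a lower effect during P/I, of the histones 11 of 12 a higher one, and of the immediate early factors 16 of 27. Clk1 and Clk4 were among those that did not pass this test (log2 0.35 and 0.60), and their CHX effects without P/I were log2 1.03 and 0.83.

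**Figure D4:**
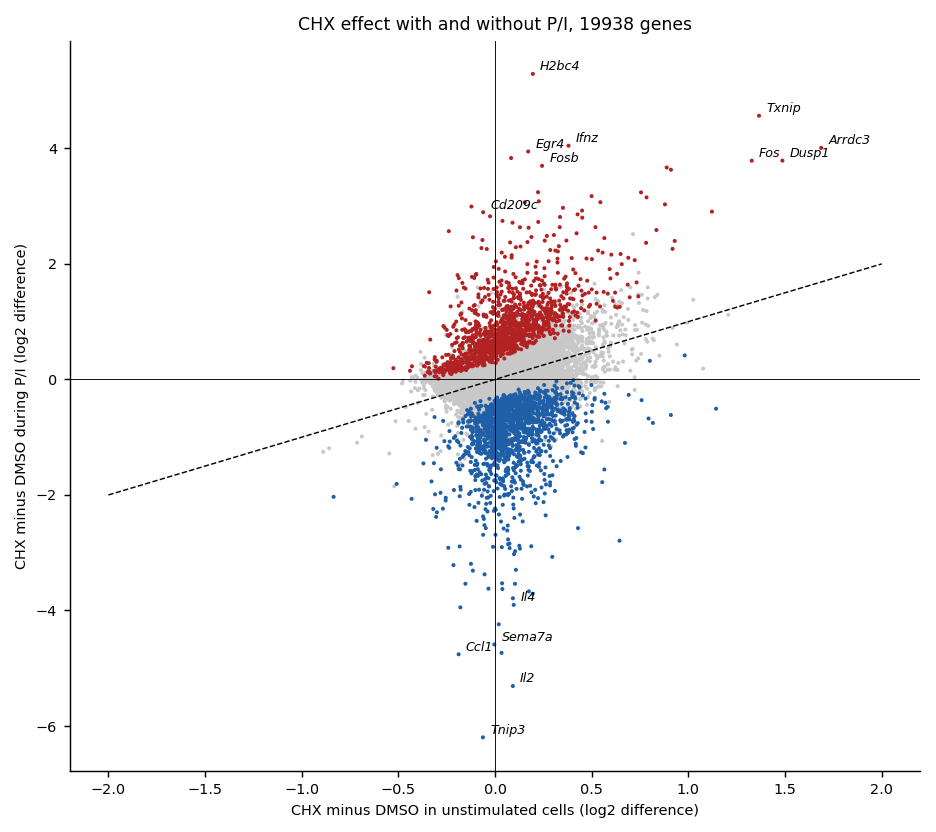
CHX effect during P/I (y axis, log2 difference) against the CHX effect in unstimulated cells (x axis, log2 difference) for 19938 genes. Red and blue points had a higher or lower effect during P/I by the interaction test of limma at an adjusted p under 0.1, grey points did not pass, and the dashed line marks equal effects. H2bc4 (5.29 against 0.20) and Tnip3 (-6.20 against -0.06) mark the ends of the y axis, and Arrdc3 (4.01 against 1.69) lies farthest right of the named genes.

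Genes called in either direction shared some features. Their median level in P/I-stimulated cells with DMSO was log2 7.39 for the higher and 8.27 for the lower genes, against 5.38 for those not called. These arrays are 1 side of the comparison that made the calls, so the levels are not independent of the calls. Of the genes with a mean of log2 5 or less in the stimulated arrays, 1.31% were higher and 1.51% lower, so few calls were made near the low end of the range. Above log2 6 the shares were 19.6% to 26.9% higher and 16.8% to 21.8% lower, depending on level. Shares of a gene list are therefore best read against genes of like level. The median genomic length was 24.1 kb for higher, 23.7 kb for lower and 15.9 kb for other genes. The median GC content of the promoter windows was 60.7%, 62.7% and 55.7%. A TATA box (TATAAA, either strand) was present in 7.6%, 7.0% and 14.6% of windows and a GC box (GGGCGG, either strand) in 66.1%, 67.0% and 44.0%. The higher and lower genes thus differed less from each other than from the remaining genes in these features, which were compared as descriptions with no test. The remaining genes include nearly all genes of low level. Length and promoter features were not compared at matched level, so they cannot be separated from level here.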

How the data were processed

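Messenger RNA was measured on 12 arrays. The authors corrected the background by RMA with adjustment for probe sequence, normalized by quantiles in Partek and deposited log2 values per probe set, which were used as given. Versions are not given in the sources used here. The 23410 probe sets with a gene symbol entered a model of 4 group means in limma 3.58.1 under R 4.3.3 (lmFit, eBayes, 8 residual and 3.63 prior degrees of freedom), two-sided, with Benjamini-Hochberg adjustment over them. This design follows the study's ANOVA over all treatments. Of the probe sets, 1621 have several symbols and enter no count, and 11989 have none and were not tested. Where several probe sets belong to a gene (999 genes), the brightest by its mean over the arrays was taken. Symbols come from the platform annotation, and 21698 of 21789 probe sets matched the RefSeq gene table by identifier.

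The genes named are the 20 largest increases and 20 largest decreases that passed with no overlap of arrays (predicted genes, small RNAs, pseudogenes and olfactory or vomeronasal receptors passed over), the 8 largest interactions of each sign, up to 6 members of each list with the smallest p, the study's own genes and the marker genes. The lists hold 839 entries, of which 753 matched a measured gene. Members and lists were chosen with earlier results of these data known. Lists are described by counts and medians, with no test of the list. Promoter windows came from the RefSeq table of GRCm38.p6, and 12935 measured genes had a single window. The array design's own build was not used. The number of arrays limits the precision, and RMA values carry no detection call. Deviations of same-numbered arrays from their group means correlated at 0.511 to 0.75 in the unstimulated groups, so the number was taken to pair those, from the data and not the labels, and the blocked count is given beside that comparison. The fit was tested on simulated data. Alternatives were other scalings, a filter, weights, thresholds, fits and left-out arrays.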

Additional observations from a re-analysis of the deposited data

Results flagged for a closer look

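These genes differed in their CHX effect between P/I-stimulated and unstimulated cells by the interaction test of limma. They are the 8 largest differences in each direction under the rule for named genes. The higher effects during P/I were those of H2bc4 (log2 5.09), Egr4 (3.77), Ifnz (3.67), Fosb (3.45), Txnip (3.20), Cxcl10 (3.11), H2ac1 (3.02) and Cd209c (2.96). The lower effects were those of Tnip3 (log2 -6.13), Il2 (-5.40), Sema7a (-4.58), Ccl1 (-4.57), Il4 (-4.00), Pgap1 (-3.91), Abra (-3.88) and Calcrl (-3.84). Their adjusted p from limma lay between 6.53e-08 for Tnip3 and 0.00628 for Txnip. Cd209c, a lectin gene of the Cd209 family, had log2 4.66, 5.30 and 5.01 in P/I-stimulated and 8.52, 7.46 and 7.68 in CHX-treated P/I-stimulated cells. Stimulation and the length of CHX exposure cannot be told apart here.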

How the results depend on the processing

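The counts of probe sets higher and lower with CHX during P/I stayed within 1.5 times 2894 and 2554 under the alternatives run. They ranged from 2279 to 3227 and from 2076 to 2610 when single arrays were left out. They were 2416 and 2179 with only the 6 stimulated arrays, 3949 and 2438 after quantile normalization, and 3989 and 3647 with array weights. Median centring took the higher share of calls from 53.1% to 63.5%. The interaction counts, 1281 higher and 1699 lower, moved more. They were 884 to 1589 and 1310 to 1864 without single arrays. The higher count became 2631 with array weights and 2110 without the 4 replicate 1 arrays, and the cause was not tested. Adding replicate number to the model as a block gave 3631 and 3418 for CHX during P/I and counts of 2181 and 2703 for the interaction. Deviations of same-numbered arrays correlated at 0.277, 0.267 and 0.064 between the stimulated groups, of which the last is too low for the number to be treated as pairing there, at 0.511 to 0.75 between the unstimulated groups and at 0.108 to 0.574 across stimulation. All 12 arrays correlated best with an array of their own number, a hint from the data and not the design. For CHX without P/I, in alternatives chosen after seeing the data, 7 probe sets higher and 0 lower became 101 and 4 with the block, 478 and 117 with array weights and 632 and 86 without the 4 replicate 1 arrays. The higher count was 0 when adjusted over all probe sets or by ANOVA with adjusted p. Without single arrays these counts ran from 0 to 38 and from 0 to 4. Gadd45g, at log2 0.19 and not called, changed sign to -0.000207 with array weights and -0.0376 without the 4 replicate 1 arrays. No named gene that passed changed sign under the alternatives run.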
